A study of Mus musculus with 16 samples.

Results

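The mitosis genes were a set of 40 genes whose products drive or carry out cell division, listed by name, with earlier results of these arrays known. The rule that picked their probe sets used no difference between groups. Of the 40, 34 had a probe set that the platform annotation assigned to that gene alone, out of 8251 genes of the array with such a probe set. Where a gene had several, the brightest over all arrays was used. All 34 lay above the detection floor of 46.9 on at least 5 arrays and were tested. Ccnb1, Cdc25b, Bub1b, Tpx2, Hmmr and Ncapd2 were not analysed here.

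The data came from epithelium of the mouse ileum, cut out of tissue by laser capture and hybridised, after 2 rounds of RNA amplification, to Affymetrix MG_U74Av2 arrays. By their titles, 6 arrays were WT, 5 were adenoma (a benign tumour) and 5 were carcinoma (an invasive tumour). The sources used here do not give the genotype, strain or age of the mice, the origin of the tumours, the way regions were chosen or how many animals were used. Because the titles do not tie arrays to animals, the p-values measure the spread between captured samples and are too small if arrays of a group shared an animal. WT served as the common reference, so the comparisons of adenoma and of carcinoma with WT share their control arrays.

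Cells enter mitosis when Cdk1 joins a B-type cyclin, and the kinases Plk1, Aurora A and Aurora B then organise the spindle and the attachment of chromosomes to it. The spindle checkpoint, of which Mad2l1 is a part, holds back the anaphase-promoting complex until every chromosome is attached, and the motor proteins and bundlers of the central spindle then separate the daughter cells. In the intestine division is normally restricted to the crypts, while the villus is lined by cells that no longer divide. Much of this gene set is transcribed late in the cell cycle, through promoters that carry CCAAT boxes and a cell cycle homology region (CHR).

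Promoter sequence was found in RefSeq (GRCm38.p6) for 31 of the 40 genes, 26 of them among the 34 measured. The 250 bases before the start were searched on both strands for CCAAT and for 2 forms of the CHR, TTTGAA and TTTAAA. No CHR match overlapped a CCAAT match in these promoters. CCAAT was present in 26 of the 31 promoters (83.9%), against 39.5% of 17492 protein-coding genes, and 2 or more copies were present in 54.8% against 13%. TTTGAA was present in 45.2% against 16.9%, and TTTAAA, which reads the same on both strands, in 16.1% against 12.9%. Both a CHR of either form and a CCAAT box were present in 51.6% of the mitosis promoters and in 9.8% of all. The last 150 bases before the start are printed for the 3 genes that rose past the threshold in a tumour (Mad2l1, Kif4, Prc1). They are also printed for Cdk1, whose adenoma values all lay above WT. Top2a, Mki67, Ccnb2 and Cdc20, which were not called and overlapped WT in both tumours, are printed as well. Capitals mark the CCAAT boxes and CHR matches on either strand that lie whole within these 150 bases. A box on the opposite strand thus reads ATTGG and a CHR reads TTCAAA. Other matches are not marked, such as TTTGAA of Ccnb2 at 167 and CCAAT of Kif4 at 152 bases before the start. Of the RefSeq starts of Prc1, the one whose window holds both motifs is shown.
Mad2l1, chr6:66535071-66535220, plus strand: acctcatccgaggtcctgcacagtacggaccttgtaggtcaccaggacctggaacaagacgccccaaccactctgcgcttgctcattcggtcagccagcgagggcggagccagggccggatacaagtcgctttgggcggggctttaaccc
Kif4, chrX:100625915-100626064, plus strand: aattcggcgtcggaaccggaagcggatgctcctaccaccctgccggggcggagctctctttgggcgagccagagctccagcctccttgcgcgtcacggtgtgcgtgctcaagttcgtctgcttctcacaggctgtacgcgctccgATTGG
Prc1, chr7:80294326-80294475, plus strand: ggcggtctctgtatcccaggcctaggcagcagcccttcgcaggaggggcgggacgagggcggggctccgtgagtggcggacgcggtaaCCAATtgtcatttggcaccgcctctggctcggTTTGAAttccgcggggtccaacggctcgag
Cdk1, chr10:69352913-69353062, minus strand: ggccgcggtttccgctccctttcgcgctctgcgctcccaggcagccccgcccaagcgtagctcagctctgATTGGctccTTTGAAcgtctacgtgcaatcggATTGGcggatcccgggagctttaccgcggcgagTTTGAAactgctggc
Top2a, chr11:99024190-99024339, minus strand: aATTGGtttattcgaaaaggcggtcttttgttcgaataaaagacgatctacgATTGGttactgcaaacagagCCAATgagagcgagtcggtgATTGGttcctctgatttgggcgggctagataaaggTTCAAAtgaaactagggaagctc
Mki67, chr7:135716380-135716529, minus strand: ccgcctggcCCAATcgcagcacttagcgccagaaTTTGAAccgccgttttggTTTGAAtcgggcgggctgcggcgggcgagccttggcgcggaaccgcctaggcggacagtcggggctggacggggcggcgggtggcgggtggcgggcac
Ccnb2, chr9:70421555-70421704, minus strand: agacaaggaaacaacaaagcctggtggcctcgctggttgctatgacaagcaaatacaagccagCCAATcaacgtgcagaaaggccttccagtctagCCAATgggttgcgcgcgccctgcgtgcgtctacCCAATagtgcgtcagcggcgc
Cdc20, chr4:118437344-118437493, minus strand: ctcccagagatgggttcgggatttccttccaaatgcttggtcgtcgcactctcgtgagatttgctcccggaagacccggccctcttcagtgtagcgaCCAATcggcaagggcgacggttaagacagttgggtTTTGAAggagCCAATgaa
Mad2l1, the gene with the largest rise of the set, had none of these letters in its window. Kif4 had CCAAT boxes and no CHR, and Cdk1, Top2a and Mki67 had several of each motif within the 250 bases. Cdc20, which did not rise in either tumour, had TTTGAA at 18 bases before its start and a CCAAT box on either side of it. A match is a description of the letters and does not show that a factor binds there. Whether motif content went with the change in the tumours was not tested.

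Mad2l1 was the mitosis gene that rose in both tumours, and Kif4 and Prc1 rose in carcinoma. In adenoma, 1 of the 34 genes (2.94%), Mad2l1, was higher than in WT at a limma adjusted p under 0.05 and none was lower, where 8.28% of all 7455 genes tested changed, 4.02% upwards and 4.25% downwards. In carcinoma, 3 of 34 (8.82%), Mad2l1, Kif4 and Prc1, were higher and none was lower, a share near the 9.05% of all genes that changed, 4.16% upwards and 4.90% downwards. At an unadjusted p under 0.05, 4 were higher in adenoma (Mad2l1, Cdk1, Kif20a and Prc1) and 1 lower (Cenpe), against 9.20% and 13.8% of all genes. The corresponding numbers in carcinoma were 6 higher (Mad2l1, Prc1, Kif4, Kif20a, Smc2 and Cdk1) and 1 lower (Cdc25c), against 9.64% and 14.2%.

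Below these thresholds the set leaned upwards in both tumours relative to the array as a whole. The median log2 fold change of the 34 genes was 0.115 in adenoma and 0.172 in carcinoma, while that of all genes tested was -0.14 in both. The difference was above 0 for 21 of 34 mitosis genes in adenoma (61.8%, against 40.1% of all genes) and for 26 of 34 in carcinoma (76.5%, against 41.1%). With array medians aligned, both medians shifted upwards, to 0.41 and 0.49 for the mitosis genes and to 0.125 and 0.15 for all genes. The gap between them was 0.252 in adenoma and 0.308 in carcinoma as deposited, 0.286 and 0.345 with medians aligned, and 0.13 and 0.226 after quantile normalization. With medians aligned, 30 and 32 of 34 mitosis genes were above 0, as were 58.3% and 59.3% of all genes. With WT 1, 2, 4 and 5 left out, the gap was 0.017 in adenoma and 0.085 in carcinoma, and 14 and 20 of 34 were above 0, against 45.7% and 45.8% of all genes. Because epithelium was measured in bulk, a different number of dividing cells and a different amount of mitotic RNA per cell cannot be told apart.

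**Figure D1:**
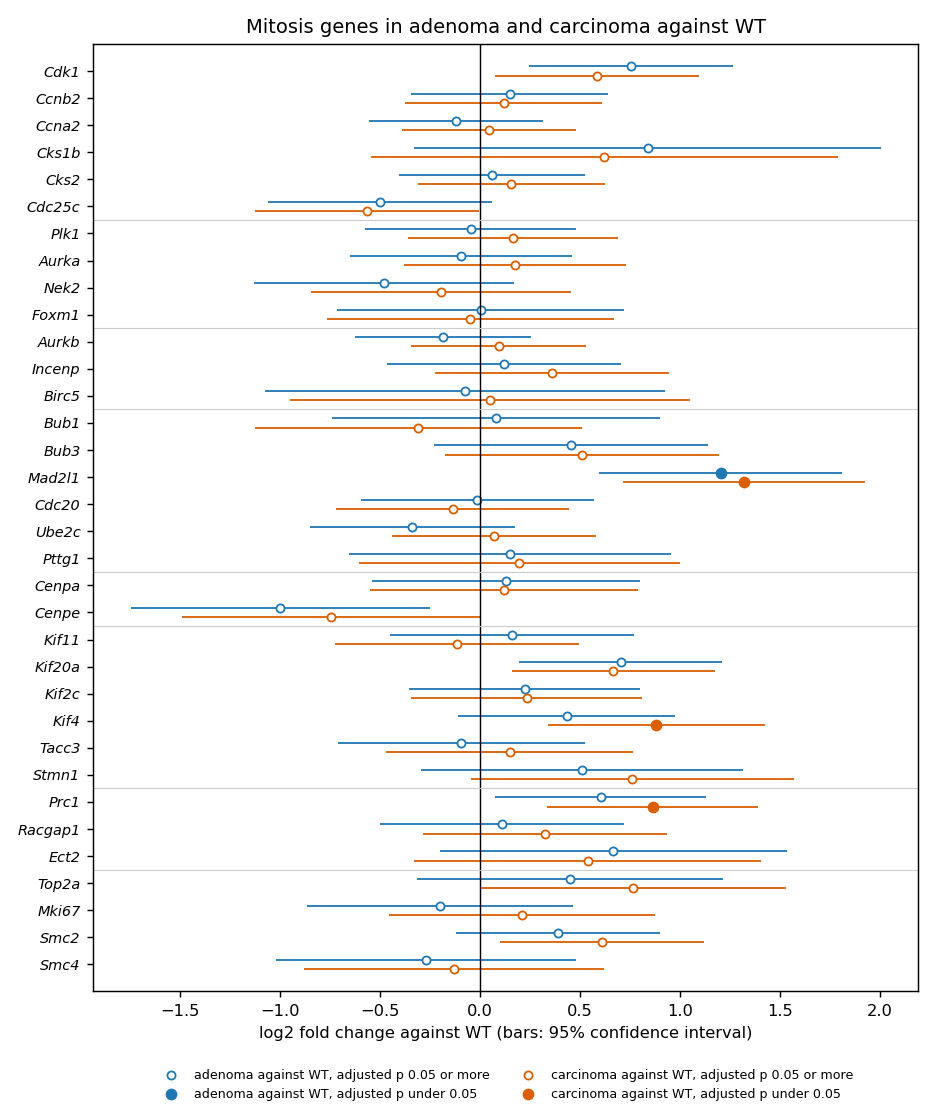
Log2 fold change of each of the 34 mitosis genes in adenoma (blue) and carcinoma (orange) against WT, with 95% confidence intervals, ordered by role from top to bottom; filled points passed the limma threshold. Mad2l1 is filled in both tumours at 1.20 and 1.32, Kif4 and Prc1 are filled in carcinoma only, and most other intervals cross 0.

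Mad2l1 encodes the checkpoint protein that binds Cdc20 and keeps the anaphase-promoting complex inactive. Its probe set read 952 to 3392 in WT, with a median of 2333. The adenoma arrays read 4929, 5044, 5389, 4850 and 4106, and the carcinoma arrays 5180, 5819, 6072, 4234 and 5179. Every tumour array lay above every WT array, and adenoma and carcinoma overlapped. Mad2l1 was 2.3-fold higher in adenoma (log2 1.20 ± 0.29 SE, limma adjusted p = 0.0138) and 2.5-fold higher in carcinoma (1.32 ± 0.29, limma adjusted p = 0.00638). Of the 34 genes, Mad2l1 and Cdk1 were the only ones without overlap above WT in adenoma, as were 3.06% of all genes, and Mad2l1 was the only one in carcinoma, as were 3.13%.

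The calls for Mad2l1 held with each array left out in turn but not under every setting. Of the 6 WT arrays, WT 3 and WT 6 had the highest Mad2l1 signal, at 3392 and 3099. Against these 2 alone, leaving aside the other 4, whose hybridisation control signal was high, the difference was 0.58 in adenoma (limma adjusted p = 0.333) and 0.70 in carcinoma (limma adjusted p = 0.211). A fit that included the spike-in signal gave 0.89 and 1.01, one that included the Gapdh ratio gave 0.99 and 1.13, and none of these passed the threshold.

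The other genes of the checkpoint and anaphase-promoting complex group did not pass the threshold in either tumour. Cdc20, the activator of the anaphase-promoting complex that Mad2l1 binds, read 1438 to 3232 in WT, with a median of 2117. It read 1808, 1855, 2353, 2993 and 1597 in adenoma and 1827, 1517, 1847, 1560 and 3081 in carcinoma. The groups overlapped throughout, with differences of -0.01 in adenoma (95% interval -0.59 to 0.57) and -0.14 in carcinoma (-0.72 to 0.45). The checkpoint kinase Bub1 differed from WT by 0.08 and -0.31, and its partner Bub3 by 0.46 and 0.51. Dimmer second probe sets gave 0.09 and 0.31 for Bub1, opposite in direction in carcinoma, and -0.27 and -0.43 for Bub3, opposite in both tumours. Ube2c, the ubiquitin-conjugating enzyme of the complex, differed by -0.34 and 0.07 on a probe set that Affymetrix marks with the suffix _r. Pttg1, the securin that the complex destroys at anaphase, differed by 0.15 and 0.20 on a probe set marked with the suffix _s. Its dimmer probe set gave -0.26 and -0.22, with a median signal of 38.65, below the floor of 46.9. On the probe sets used, none of Cdc20, Bub1, Bub3, Ube2c and Pttg1 reached an unadjusted p of 0.05 in either tumour. Of the 6 checkpoint and anaphase-promoting complex genes tested, Mad2l1 was thus the only one called. Of all genes, 8.28% were called in adenoma and 9.05% in carcinoma.

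Among the spindle motors and microtubule binders, 1 of 6 genes rose in carcinoma and none in adenoma. Of all genes, 4.16% rose in carcinoma and 4.02% in adenoma. Kif4, a motor that rides on chromosome arms and the central spindle, read 384.5 to 945 in WT, with a median of 580. Adenoma arrays read 784, 839, 773, 601 and 1055, and carcinoma arrays 775, 1259, 1192, 1357 and 961. The carcinoma arrays lay in the upper part of the range, but carcinoma 1 fell below WT 3, so the groups overlapped. Kif4 was 1.84-fold higher in carcinoma (0.88 ± 0.26, limma adjusted p = 0.0376), and its difference in adenoma was 0.44 (95% interval -0.11 to 0.98).

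Kif20a, a motor of the central spindle needed for cytokinesis, leaned the same way in both tumours without passing the adjusted threshold. It read 1040 to 2223 in WT, with a median of 1537. Adenoma arrays read 2041, 2358, 3383, 2476 and 2795 and carcinoma arrays 2001, 2329, 2368, 3009 and 2976. The tumour arrays overlapped only the upper end of WT. The differences were 0.70 ± 0.24 in adenoma (limma adjusted p = 0.0822) and 0.67 ± 0.24 in carcinoma (limma adjusted p = 0.0933). This brightest probe set is of a type that Affymetrix marks as shared within a gene family, and the other, unmarked probe set of Kif20a also differed upwards, by 0.96 and 0.73.

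Stmn1, a protein that destabilises microtubules, read 907 to 4632 in WT, with a median of 3175. It read 4498, 3845, 4802, 1607 and 6093 in adenoma and 5280, 4499, 3489, 4640 and 5041 in carcinoma. WT 1 and adenoma 4 stood lowest, the groups overlapped, and the differences were 0.51 (limma adjusted p = 0.449) and 0.76 (limma adjusted p = 0.235). A dim second probe set of Stmn1, with a median signal of 27.1, below the floor of 46.9, gave -0.29 and -0.21. The other members of the group were Kif11, which pushes the spindle poles apart, Kif2c, which takes microtubules apart at the kinetochore, and the spindle protein Tacc3. Their differences ran from -0.09 to 0.22 in adenoma and from -0.11 to 0.24 in carcinoma.

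Of the 3 cytokinesis genes, 1 rose in carcinoma and none in adenoma, against 4.16% and 4.02% of all genes. All 3 had differences above 0 in both tumours, as did 41.1% of all genes in carcinoma and 40.1% in adenoma. Prc1 bundles the microtubules of the central spindle and recruits Kif4 there. Its probe set read 645 to 1205 in WT, with a median of 802.5. It read 1280, 1251, 969.5, 998 and 1851 in adenoma and 1776, 1760, 1479, 1543 and 986 in carcinoma. In carcinoma 4 of the 5 arrays lay above every WT array, and carcinoma 5 fell below WT 4. Prc1 was 1.82-fold higher in carcinoma (0.86 ± 0.25, limma adjusted p = 0.0367), and in adenoma the difference was 0.61 ± 0.25 (limma adjusted p = 0.152).

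The calls for Kif4 and Prc1 in carcinoma rested on small margins. Each was kept in 8 of the 16 fits that left out 1 array. Kif4 lost its call without any one of WT 1, 2, 4 or 5 or carcinoma 2, 3, 4 or 5, with differences of 0.76 to 0.93 and limma adjusted p of 0.0508 to 0.0992. Prc1 lost it without any one of WT 1, 2, 3 or 5 or carcinoma 1, 2, 3 or 4, with differences of 0.80 to 0.86 and limma adjusted p of 0.0574 to 0.0927. Without the 4 WT arrays of high control signal the difference of Kif4 was 0.44 (limma adjusted p = 0.638), while that of Prc1 was 0.825 (limma adjusted p = 0.253). With the spike-in covariate, Kif4 stood at 0.465 and Prc1 at 0.64.

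Ect2, the exchange factor that switches on RhoA at the division plane, read 751 to 2646 in WT, with a median of 1114. It read 3374, 1697, 2883, 1234 and 1874 in adenoma and 2379, 2818, 2843, 1566 and 818 in carcinoma. The WT arrays themselves spanned most of this range, with WT 3 at 2646, WT 6 at 2605 and the other 4 between 751 and 1193. The differences were 0.67 ± 0.41 in adenoma (limma adjusted p = 0.355) and 0.54 ± 0.41 in carcinoma (limma adjusted p = 0.45). Racgap1, the partner of Ect2 at the midzone, differed by 0.11 and 0.33.

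None of the 6 genes of the cyclin and Cdk engine passed the adjusted threshold in either tumour. Cdk1, the kinase that starts mitosis, came nearest. It read 447 to 1074 in WT, with a median of 791, and 1208, 1238, 1356, 1113.5 and 1588 in adenoma. Carcinoma arrays read 1305, 1008.5, 973.5, 1398 and 1107. All adenoma arrays lay above all WT arrays, while 2 carcinoma arrays fell within the WT range. Cdk1 differed by 0.76 ± 0.24 in adenoma (limma adjusted p = 0.0625) and by 0.59 ± 0.24 in carcinoma (limma adjusted p = 0.144). The adenoma difference lay close to the threshold: it was called in 9 of 32 alternatives, among them no filter (limma adjusted p = 0.0314), array weights (0.0272), aligned medians (0.0256) and a fit without WT 5 (0.0497) or WT 6 (0.0381), and over all 32 its adjusted p ran from 0.0256 to 0.765.

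Ccnb2, a B-type cyclin that activates Cdk1, did not share this lean. It read 2308 to 3495 in WT, with a median of 3186. It read 2957, 3630, 4557, 2706 and 3102 in adenoma and 3042, 2243, 3150, 4167 and 4141 in carcinoma. The 3 groups overlapped, and the differences were 0.15 (95% interval -0.34 to 0.64) and 0.12 (-0.37 to 0.61). Ccna2, the cyclin of S phase and early mitosis, read 1453 to 2147 in WT, 1438 to 2021 in adenoma and 1559 to 2302 in carcinoma. Its differences of -0.12 (-0.55 to 0.32) and 0.05 (-0.39 to 0.48) gave the narrowest intervals of the set, well inside a 2-fold change.

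Cdc25c, the phosphatase that removes the inhibitory phosphates of Cdk1, leaned downwards. Its brightest probe set read 403 to 905 in WT, 308 to 553 in adenoma and 329 to 517 in carcinoma. The difference was -0.50 in adenoma (limma adjusted p = 0.281) and -0.56 in carcinoma (limma adjusted p = 0.208). A second probe set of Cdc25c, without a suffix, gave 0.49 and 0.27, while Affymetrix marks the brightest with the suffix _s. The direction of this gene was thus not settled by the array. The small Cdk-binding proteins Cks1b and Cks2 differed by 0.84 and 0.06 in adenoma and by 0.62 and 0.16 in carcinoma. Cks1b lay at the floor on 3 WT arrays and on 1 array of each tumour group, and its standard error of 0.56 was the largest of the set.

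**Figure D2:**
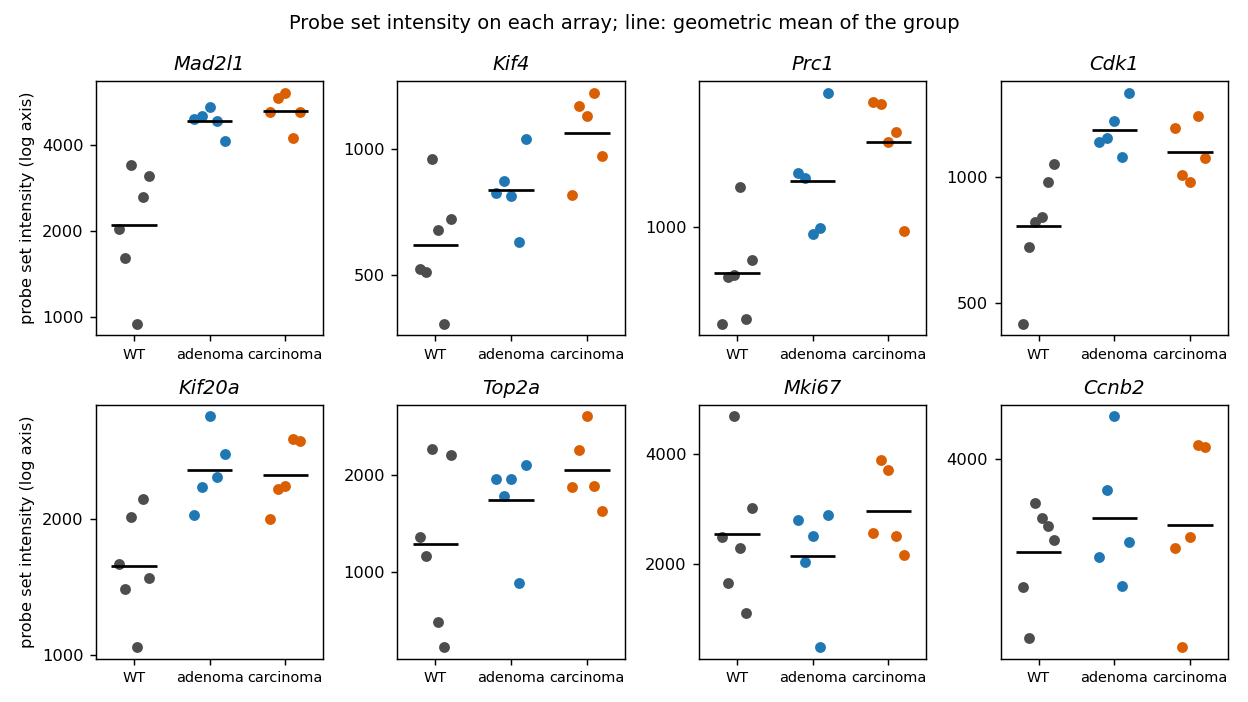
Probe set intensity on each array (log axis) for 8 mitosis genes in WT (grey, n = 6), adenoma (blue, n = 5) and carcinoma (orange, n = 5), with the geometric mean of the group as a line; intensities are not comparable between panels. Mad2l1 separates every tumour array from WT and Cdk1 every adenoma array, while Top2a, Mki67 and Ccnb2 overlap across the groups.

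The mitotic kinases and their transcription factor gave 0 calls of 4 in either tumour, and none of the 4 reached an unadjusted p of 0.05. Plk1, which acts at centrosomes, kinetochores and the midzone, read 4072 to 10730 in WT, 5847 to 9093 in adenoma and 6711 to 9973 in carcinoma. Its differences were -0.05 (95% interval -0.57 to 0.48) and 0.17 (-0.36 to 0.69). Its brightest probe set is marked as shared within a family, and the 2 dimmer ones gave -0.24 and -0.50 in adenoma and 0.14 and -0.20 in carcinoma. Aurka, the centrosomal Aurora kinase, read 525 to 1405.5 in WT, 703 to 1031 in adenoma and 775 to 1262 in carcinoma, with differences of -0.09 (-0.65 to 0.46) and 0.18 (-0.38 to 0.73).

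Nek2, a kinase that parts the centrosomes, read 869 to 2193.5 in WT, with a median of 1316, and differed by -0.48 in adenoma and -0.19 in carcinoma. It read 1237.5, 743, 1248, 531 and 1227 in adenoma and 1444, 1233, 1724.5, 835 and 782 in carcinoma. Nek2 did not pass the threshold, but with the spike-in covariate it was lower in adenoma by 1.24 on the log2 scale (limma adjusted p = 0.0151). Foxm1, the transcription factor that turns on many genes of this set, differed by 0.0046 and -0.05, with intervals of -0.71 to 0.72 and -0.77 to 0.67. Its highest values were 1656 on adenoma 4 and 1372 on carcinoma 5, against 434 to 816 on every other array. Affymetrix marks the probe set used for Foxm1 with the suffix _g. A dimmer second probe set of Foxm1, without a suffix, gave -0.91 and -1.05, also short of the threshold. Its median signal of 46.1 lay below the floor of 46.9.

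No gene of the chromosomal passenger complex, which corrects faulty attachments and then guides cytokinesis, was called in either tumour, and none of the 3 reached an unadjusted p of 0.05. Aurkb, its kinase, read 550 to 893 in WT, 485 to 731 in adenoma and 707 to 927 in carcinoma. The differences were -0.18 (95% interval -0.62 to 0.26) and 0.09 (-0.34 to 0.53). Incenp, its scaffold, differed by 0.12 and 0.36 on its brighter probe set and by -0.63 and -0.21 on the other, so its direction was not settled. Birc5 (survivin), which brings the complex to centromeres, was dim, at 33.4 to 219.9 in WT, 49 to 198 in adenoma and 17.7 to 184 in carcinoma. It lay at the floor on 2 WT arrays and 1 carcinoma array, and its intervals of -1.07 to 0.92 and -0.95 to 1.05 were the widest of the set after Cks1b.

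The centromere histone Cenpa differed by 0.13 (95% interval -0.54 to 0.80) and 0.12 (-0.55 to 0.79). Cenpe, the kinetochore motor that aligns chromosomes, read 26.2 to 237 in WT, with a median of 92.2. It read 39.3, 9.9, 6.5, 15.3 and 23.4 in adenoma and 58.3, 5.1, 56.6, 37.8 and 75.6 in carcinoma. All adenoma arrays, 2 carcinoma arrays and 2 WT arrays lay below the floor of 46.9, so the groups overlapped at the floor. The difference measured from the floor was -0.996 in adenoma (limma adjusted p = 0.0964) and -0.74 in carcinoma (limma adjusted p = 0.213). Values below the floor were raised to it in all 3 groups, so the size of any true difference is not known. With the floor at the 10th percentile, Cenpe was lower in adenoma (-1.93, limma adjusted p = 0.0467), and it was also called lower without WT 3 (limma adjusted p = 0.0433) and without WT 5 (limma adjusted p = 0.0388). Over the 30 alternatives that tested Cenpe, its adenoma difference ran from -1.93 to -0.337, with limma adjusted p from 0.0388 to 0.686. Its carcinoma difference ran from -0.941 to -0.082 and was never called.

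None of the 4 genes of chromosome structure passed the adjusted threshold. Top2a, the topoisomerase that untangles sister chromatids, read 587 to 2415 in WT, with a median of 1207. It read 1949, 1718, 1940.5, 931 and 2151 in adenoma and 1844, 2399, 3042, 1848 and 1551 in carcinoma. WT 3 and WT 6 were higher than every adenoma array, and the other 4 WT arrays were lower than every carcinoma array. The differences were 0.45 ± 0.36 in adenoma (limma adjusted p = 0.479) and 0.76 ± 0.36 in carcinoma (limma adjusted p = 0.209).

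Mki67, which coats mitotic chromosomes and is the usual histological marker of dividing cells, did not differ beyond its spread. It read 1471 to 5051 in WT, with a median of 2293. It read 2636, 2035, 2382, 1190 and 2715.5 in adenoma and 2426, 3834, 3598, 2394.5 and 2116 in carcinoma. The differences were -0.20 (95% interval -0.86 to 0.47) and 0.21 (-0.45 to 0.87). A dimmer second probe set, which Affymetrix marks with the suffix _r, gave -1.02 in adenoma (limma adjusted p = 0.0985) and -0.41 in carcinoma. The probe sets of Mki67 thus disagreed in size in adenoma and in direction in carcinoma, and the brighter one has no suffix.

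Smc2, a core subunit of condensin, which compacts chromosomes, read 287 to 599.5 in WT, with a median of 489.55. It read 644, 508, 634, 512 and 766 in adenoma and 893, 764, 798, 567 and 562 in carcinoma. Every tumour array lay above the WT median but the groups overlapped, and the difference in carcinoma was 0.61 ± 0.24 (limma adjusted p = 0.129), with 0.39 in adenoma. Smc4, the other core subunit, differed by -0.27 and -0.13.

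No mitosis gene passed the threshold between carcinoma and adenoma. Of the 34 genes, 0 passed the limma adjusted threshold and 0 reached an unadjusted p of 0.05, where 0.0268% and 2.48% of all genes did. The differences ran from -0.39 for Bub1 to 0.45 for Kif4, with a median of 0.133 (all genes, 0.006), and 23 of 34 were above 0. For Mad2l1 the difference was 0.12 (95% interval -0.51 to 0.75), for Kif4 0.45 (-0.12 to 1.01) and for Mki67 0.41 (-0.29 to 1.10). For 25 of the 34 genes the 95% interval excluded a 2-fold change in either direction, and for the others, among them Kif4, Top2a and Mki67, a change of that size was not excluded. Against WT the interval lay within 2-fold for 20 genes in adenoma and 18 in carcinoma.

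The mitosis genes were uneven within WT itself, and this ran beside a technical control. The mean log2 intensity of the 34 genes was 9.79 on WT 3 and WT 6 (9.795 and 9.789) and 9.41 to 9.54 on the other 4 WT arrays. It was 9.54 to 9.87 in adenoma, lowest on adenoma 4, and 9.67 to 9.94 in carcinoma. The mean log2 signal of the hybridisation spike-ins was 12.61 and 12.44 on WT 3 and WT 6, 13.74 to 14.73 on the other WT arrays, 13.47 on adenoma 4 and 11.38 to 12.70 on the remaining tumour arrays. The 5 arrays with the highest spike-in signal were therefore the 5 with the lowest mean mitosis signal.

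In 8 of the 34 genes (23.5%: Nek2, Mad2l1, Cenpa, Kif4, Ect2, Top2a, Mki67 and Smc2), WT 3 and WT 6 were both higher than all 4 other WT arrays, as they were in 7.16% of all genes tested. The reverse held for 1 gene, Foxm1 (2.94%, against 9.42% of all genes). Adenoma 4 was the lowest adenoma array for 14 of the 34 genes (41.2%, against 23.3% of all genes), among them Top2a, Mki67, Smc4 and Ect2. With WT 1, 2, 4 and 5 left out, limma called no mitosis gene in either tumour (at an unadjusted p under 0.05, 1 was higher and 1 lower in adenoma and 2 were higher in carcinoma), and the median difference was -0.04 in adenoma and 0.029 in carcinoma. The part of the spike-in difference in these results was not tested further.

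**Figure D3:**
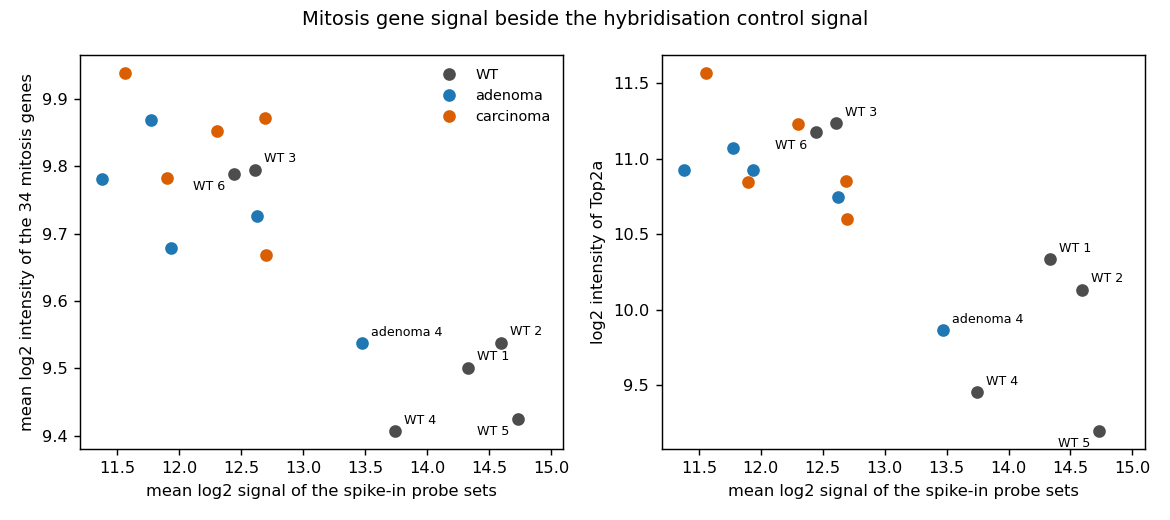
Mean log2 intensity of the 34 mitosis genes (left) and log2 intensity of Top2a (right) against the mean log2 signal of the spike-in probe sets on each of the 16 arrays; WT is grey, adenoma blue and carcinoma orange. WT 3 and WT 6 lie with the tumour arrays at low spike-in signal, and WT 1, 2, 4 and 5 lie with adenoma 4 at high spike-in signal and low mitosis signal.

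Spike-in signal averaged 13.74 in WT, 12.24 in adenoma (exact permutation p = 0.0325 against WT, or 0.0487 with adjustment for 3 pairs of groups) and 12.23 in carcinoma (exact permutation p = 0.0238, adjusted 0.0487). The log2 ratio of the 3' over the 5' Gapdh probe set was 4.52 in WT. It was 5.82 in adenoma (exact permutation p = 0.00216, adjusted 0.00649) and 5.70 in carcinoma (exact permutation p = 0.00433, adjusted 0.00649). Whether this ratio reflects the state of the RNA or its amplification was not tested. Epithelial markers were present: all 13 of the list had a probe set and none lay below the floor on all arrays. Their level was not equal between groups, with 2 of 13 called lower in each tumour and medians of -0.38 and -0.37. Goblet cell markers were called lower in 4 of 7 cases in each tumour, with 1 higher in carcinoma, and fibroblast and matrix markers were called higher in 1 of 11 in adenoma and in 3 of 11, with 1 lower, in carcinoma. Markers of the non-dividing villus enterocyte were called lower in 5 of 12 cases in adenoma and 6 of 12 in carcinoma. Their summed intensity was 16060 to 86668 in WT, 3406 to 45414 in adenoma and 1929 to 6041 in carcinoma. Of 5 Paneth cell markers of the crypt base, 2 were called higher and 1 lower in each tumour. Smooth muscle markers were called lower in 2 of 7 cases in each tumour, with 1 higher in adenoma. Endothelial markers were called higher in 1 of 9 in adenoma and 0 of 9 in carcinoma, and no macrophage or neutrophil marker was called. Of all genes, 4.25% in adenoma and 4.90% in carcinoma were called lower, and 4.02% and 4.16% higher. Lymphocyte and plasma cell markers, from another kind of cell that can divide in the mucosa, were called lower in 4 and 2 of 13 cases, with sums of 2247 to 3885, 1433 to 2264 and 1371 to 2413.5. The part of these cell types in the mitosis values was not tested.

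The mitosis genes did not vary as a single block from array to array. After subtraction of group means, the median correlation over 561 gene pairs and 16 arrays was 0.053, against 0.017 over all pairs of genes tested, and 9.98% of pairs exceeded 0.5, against 8.91%. The correlations named next were picked for their size, and no background was made for values picked in this way. Top2a correlated at 0.895 with the mean of the other 33 genes, and at 0.867 with Mki67, 0.859 with Ect2 and 0.827 with Smc4. Foxm1 (-0.69), Cdc25c (-0.548), Cenpe (-0.541) and Cdc20 (-0.533) ran against the mean of the rest, and Cdc20 and Cdc25c ran with each other (0.744). These correlations share the same 16 arrays and their differences in control signal, and they are given as descriptions.

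**Figure D4:**
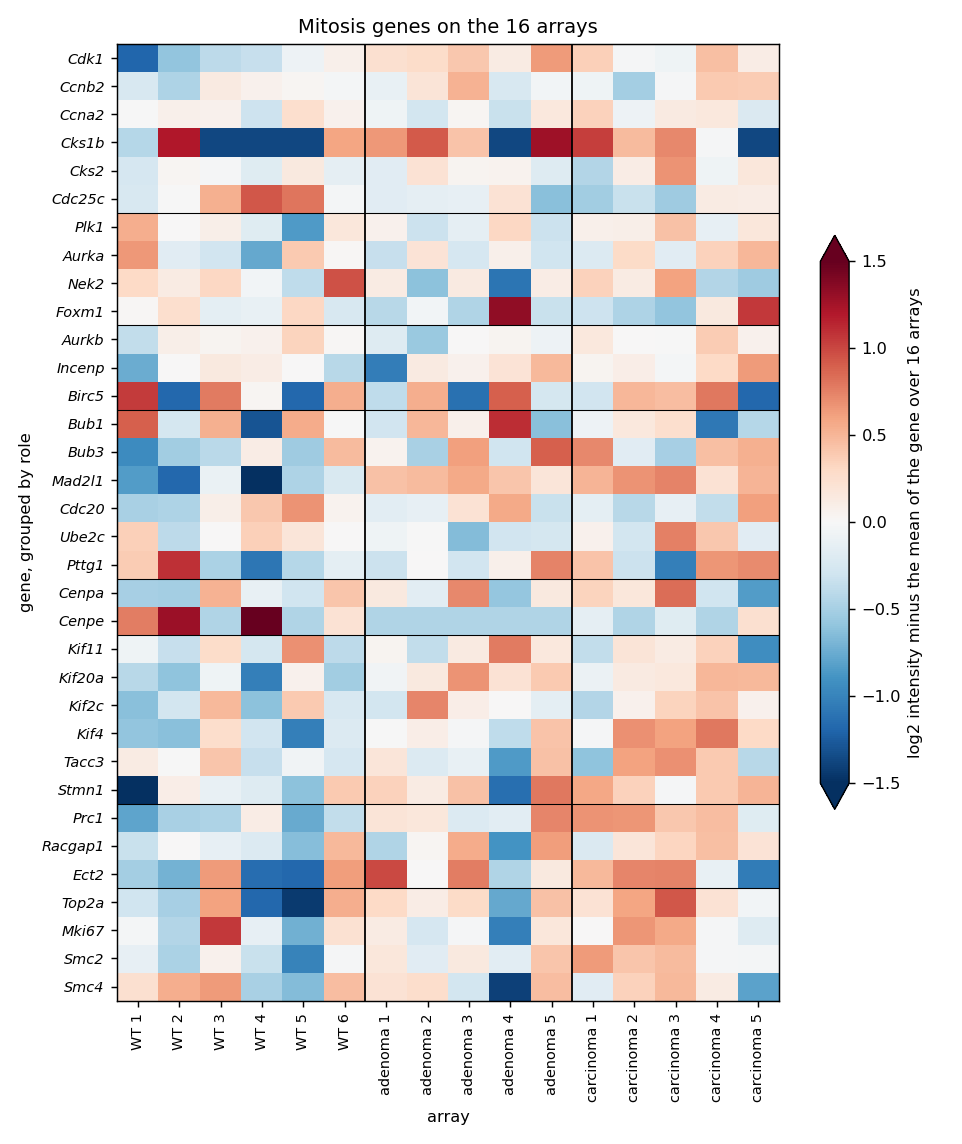
Log2 intensity of each of the 34 mitosis genes on the 16 arrays, minus the mean of the gene, in red above and blue below the mean; horizontal lines part the role groups and vertical lines the sample groups. The Mad2l1 row is blue in WT and red in the tumours, and the Top2a, Mki67 and Smc4 rows are blue on WT 4, WT 5 and adenoma 4.

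Of 43 further mitosis genes tested, 1 (2.33%) was higher and 0 were lower by limma in each tumour, where 8.28% and 9.05% of all genes were called. This was Nek7, a kinase of the spindle and of the inflammasome, at 440 to 986 in WT, 1405 to 2320 in adenoma and 1512 to 3562 in carcinoma, without overlap (log2 1.44 ± 0.27, limma adjusted p = 0.00214, and 1.76 ± 0.27, limma adjusted p = 0.000294). The median of the 43 was 0.16 in adenoma and 0.22 in carcinoma, and 7 and 6 were higher at an unadjusted p under 0.05, with 1 lower in each, against 9.20% and 9.64% higher among all genes.

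Of 30 genes of G1 and S phase control, 1 was higher and 1 lower in each tumour (6.67%, against the same 8.28% and 9.05%). Cdkn1c (p57), a Cdk inhibitor, was higher in adenoma (2.79 ± 0.41, limma adjusted p = 0.000247) and carcinoma (2.27 ± 0.41, limma adjusted p = 0.00127), at 19.7 to 309.9 in WT against 853 to 1863 and 558 to 1152. The D-type cyclin Ccnd2 was lower in adenoma (-1.54 ± 0.42, limma adjusted p = 0.0291), and the Cdk inhibitor Cdkn2b (p15) was lower in carcinoma (-1.38 ± 0.26, limma adjusted p = 0.00209). The difference of Ccnd2 in carcinoma was -0.62 (limma adjusted p = 0.384), and that of Cdkn2b in adenoma was -0.83 (limma adjusted p = 0.058). The median of these 30 was -0.04 and -0.11.

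Of 35 DNA replication genes, 1 was called in each tumour (2.86%, against 8.28% of all genes in adenoma and 9.05% in carcinoma). Fen1, the flap endonuclease, was called lower in adenoma (-0.92 ± 0.28, limma adjusted p = 0.047). It was dim, at 76 to 182.4 in WT and 44.4 to 88 in adenoma, near the floor of 46.9, and these groups overlapped. The difference of Fen1 in carcinoma was -0.81 (limma adjusted p = 0.0778). Pcna, the sliding clamp, was higher in carcinoma (1.11 ± 0.26, limma adjusted p = 0.011), at 2169 to 5373 in WT, 4200 to 6953 in adenoma and 6521 to 9201 in carcinoma, and its difference in adenoma was 0.63 (limma adjusted p = 0.155). The median of the 35 was 0.036 and 0.07. Between carcinoma and adenoma, no gene of these 3 lists passed the limma adjusted threshold. At an unadjusted p under 0.05 there were 1 higher and 1 lower, both among the G1 and S phase genes, where 2.48% of all genes reached it.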

How the data were processed

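Laser-captured ileal epithelium was measured on 16 arrays, grouped by their titles into WT (n = 6), adenoma (n = 5) and carcinoma (n = 5). Per the labels' protocols, RNA was amplified in 2 rounds and labelled with commercial kits before hybridisation. The authors deposited 1 probe set intensity per array on a linear scale for 12488 probe sets, with a similar trimmed mean on every array. For the software that summarised the probes, nothing is given in the sources used here. No further scaling was applied.

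Intensities below the 25th percentile of all values (46.9) were raised to this floor before log2 transformation. Gene symbols came from the platform annotation, and the 66 Affymetrix controls were not tested. A gene was tested when 5 or more of the 16 arrays exceeded the floor, which left 7455 of 8251. One model of the 3 groups was fitted in limma 3.58.1 under R 4.3.3 (13 residual degrees of freedom), with two-sided tests and Benjamini-Hochberg adjustment over all genes tested at 0.05. Control measures were compared by two-sided exact permutation tests. The fit was also run on simulated data in which values were drawn independently, with no spike-in or Gapdh difference between groups. That run therefore does not bear on the effect of those differences. Plots used Python 3.11.15 and matplotlib 3.10.9.

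The members, the role groups, the 3 further lists (other mitosis genes, G1 and S phase genes, DNA replication genes) and the marker lists were chosen with earlier results of these data known. Named by rule were genes past the threshold or at an unadjusted p under 0.05 in a comparison, the 2 brightest of each role group, and always Cdk1, Ccnb2, Plk1, Aurka, Mki67, Top2a and Birc5, and from each further list up to 6 genes past the threshold. Other members were named after their values were seen, so that none is left out. Alternatives changed the scaling, floor, filter, probe set rule, variance model, covariates, replicate block and arrays used. A fit without 4 WT arrays and adenoma 4, and one on probe sets without a suffix, were chosen after seeing the data.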

Additional observations from a re-analysis of the deposited data

Results flagged for a closer look

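In a check of each of the 34 genes in each of the 3 groups, 102 in all, 4 single values stood far from the rest of their group, which is about what chance gives, since it sets 1 value apart in about 1 of 20 groups. Foxm1 read 1656 on adenoma 4, with the next adenoma value at 637. Top2a read 931 on adenoma 4, below the next value of 1718. Incenp read 131.6 on adenoma 1, with the next value at 283. Cdc20 read 3081.1 on carcinoma 5, with the next value at 1847.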

How the results depend on the processing

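The 3 comparisons were repeated under 32 alternatives, 16 of which left out 1 array each. No mitosis gene that was called reversed its direction. Mad2l1 was called in 28 of 32 in each tumour, with differences of 0.58 to 1.501 and 0.70 to 1.65, and Kif4 and Prc1 in carcinoma in 18 of 32 each. Carcinoma and adenoma differed in 0 mitosis genes under every alternative, and in 0 at an unadjusted p under 0.05 in the limma fit as reported. Leaving out 1 array gave 1 to 4 mitosis genes in adenoma (4 without WT 5, 2 without WT 3 or WT 6), 1 to 3 in carcinoma, and 384 to 681, 494 to 775 and 1 to 5 among all genes in the 3 comparisons, 384 without adenoma 5.

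Aligning array medians gave 3 mitosis genes in adenoma and 5 in carcinoma, with medians of 0.411 and 0.495, and raised the share of upward calls among all genes from 48.6% to 75.8% and from 45.9% to 73.7% (62.6% and 58.8% after quantile normalization). Adenoma had 2 called mitosis genes when the floor was the 10th or the 40th percentile, with probe sets averaged, with array weights and with a robust variance trend, and 3 with no filter. The Gapdh covariate, whose values nearly separate WT from the tumours, left 0 and 0, and 70 and 100 among all genes. The spike-in covariate left 1 (Nek2, lower) and 0, with an adenoma median of -0.036, and 398 and 382 among all genes. Leaving out the WT arrays 1, 2, 4 and 5 left 0 and 0, medians of -0.04 and 0.029, and 196 and 217. Leaving out adenoma 4 as well left 0 and 0, -0.033 and 0.029, and 183 and 247. Fitting only the 2 groups compared left 1 in carcinoma. Of all genes, carcinoma against adenoma gave 2 as reported, 0 with the lower floor, with 2 groups fitted or with adenoma 4 also left out, 1 with no filter or without suffixed probe sets, 5 with the higher floor or without the 4 WT arrays, and 18 with array weights. Why these counts moved was not tested.

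With the replicate block, 2 mitosis genes were called in adenoma (Cdk1 was added) and 1 in carcinoma, and 728, 842 and 2 genes in all. Correlations of same-numbered arrays over all genes ran from -0.265 to 0.398, most of them positive. Differently numbered arrays were not compared, so these values cannot decide whether the numbers are a pairing. The main fit did not use them as one. Detection limited Cenpe, Cks1b and Birc5, which lay at the floor on some arrays.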
